A study of Mus musculus with 12 samples.

Results

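The genes described here are 32 genes of adipocytes and of lipid storage, taken by symbol from a table of 35999 gene names. They encode adipokines, lipid droplet proteins, carriers for fatty acids and glycerol, lipogenic enzymes, enzymes of triglyceride synthesis and of lipolysis, and transcription factors of fat cells. All 32 were in the table, and 31 had enough counts to be tested among 17940 genes. Cidea, a droplet protein best known from brown fat, was the exception. Male BALB/c mice aged 8 to 10 weeks bore AB1-HA, a mesothelioma cell line that carries influenza haemagglutinin, as tumours under the skin. The PBS group (n = 6) got vehicle and the anti-CD4 group (n = 6) got 100 µg of depleting antibody to CD4 at days -3, 0 and 7. Tumours were taken at day 9. The comparison asked how the tumours differ when CD4 T cells are removed.

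White adipocytes store triglyceride in a lipid droplet coated by perilipins and CIDE proteins, and release fatty acids from it when hormones switch on lipolysis. They secrete adipokines such as adiponectin and leptin, and their identity depends on the transcription factors PPARG and C/EBPα. Several of the enzymes are not restricted to fat: fatty acid synthase, acetyl-CoA carboxylase and ATP citrate lyase are used by most dividing cells, and CD36, FABP4 and lipoprotein lipase are also made by macrophages or endothelium. In bulk tumour RNA, fewer cells of a type and less RNA per cell cannot be told apart.

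Totals ran from 30.7 to 62.1 M estimated counts per tumour, 36.1 ± 4.03 M with PBS and 46.4 ± 10.0 M with anti-CD4 (SD over 6 tumours). Cd4 lay between 4.35 and 9.93 CPM (counts scaled to a common library total, the unit of level used throughout) in PBS tumours and between 0.618 and 2.13 CPM in anti-CD4 tumours, with no overlap. The labels tie no tumour to a named mouse, so p-values measure the spread between these samples. Anti-CD4 4 and PBS 5 stood apart for many of the genes below, and the main treatment values of the adipocyte genes are also given without each of them.

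RefSeq promoters, from 250 bases before to 50 bases after a start site in GRCm38.p6, were found for 22 of the 32 genes, 29 promoters in all. Those of 3 genes whose levels varied widely between tumours (Adipoq, Lep and Plin1) and of Fasn, whose level varied little, are shown to set the sequences beside the values. Capitals mark a C/EBP site (TTGCNNAA) or a CCAAT box (CCAAT) on either strand. They lie at chr16:23146286-23146585 (plus strand), chr6:29059971-29060270 (plus strand), chr7:79732727-79733026 (minus strand) and chr11:120824498-120824797 (minus strand), and each is written 5′ to 3′ along the gene.
Adipoq: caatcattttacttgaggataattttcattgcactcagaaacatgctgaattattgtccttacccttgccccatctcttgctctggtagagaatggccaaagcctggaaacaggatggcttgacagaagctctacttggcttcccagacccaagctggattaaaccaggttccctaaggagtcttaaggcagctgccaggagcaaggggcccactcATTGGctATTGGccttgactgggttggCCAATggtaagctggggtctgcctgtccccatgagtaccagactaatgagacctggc
Lep: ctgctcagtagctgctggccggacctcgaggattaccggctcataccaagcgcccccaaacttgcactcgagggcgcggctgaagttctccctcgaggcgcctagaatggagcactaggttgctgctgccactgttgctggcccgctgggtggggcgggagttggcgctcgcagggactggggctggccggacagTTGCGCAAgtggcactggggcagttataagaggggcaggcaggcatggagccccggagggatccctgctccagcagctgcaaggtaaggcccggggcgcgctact
Plin1: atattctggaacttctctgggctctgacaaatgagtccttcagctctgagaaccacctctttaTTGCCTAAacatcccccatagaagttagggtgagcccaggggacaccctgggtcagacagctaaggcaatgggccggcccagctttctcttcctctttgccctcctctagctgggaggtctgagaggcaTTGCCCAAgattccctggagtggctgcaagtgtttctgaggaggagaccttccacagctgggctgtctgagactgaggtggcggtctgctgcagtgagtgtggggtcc
Fasn: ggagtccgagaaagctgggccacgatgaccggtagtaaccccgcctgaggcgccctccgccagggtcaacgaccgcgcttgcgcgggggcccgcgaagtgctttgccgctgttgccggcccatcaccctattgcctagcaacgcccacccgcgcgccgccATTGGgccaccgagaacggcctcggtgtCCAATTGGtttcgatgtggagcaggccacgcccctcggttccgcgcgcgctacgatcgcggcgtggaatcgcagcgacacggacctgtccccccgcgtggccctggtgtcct

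The Lep promoter held 1 C/EBP match, TTGCGCAA at bases 196 to 203, and the Plin1 promoter held 2, at bases 64 to 71 and 193 to 200. The Adipoq and Fasn promoters held none, and each had 3 CCAAT matches. A C/EBP match was present in 4 of the 29 promoters (Lep, Plin1, the second of Cidec and the third of Pparg), beside 10.8% of 32851 mouse promoters of the same length. A CCAAT match was present in 9 of the 29, beside 37.4% of all. The nuclear receptor site AGGTCA, on either strand, was in 6 of them, in Cd36, Aqp7 (2), Pparg (2) and Acly, beside 16.3% of all. These matches are descriptions of these windows and not evidence of binding.

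Most of the 31 tested genes varied between tumours by more than the typical gene. The range of log2 CPM over the 12 tumours had a median of 2.84 over the 31 tested genes and 0.69 over all tested genes. It exceeded the 90th percentile of all tested genes, 2.10, for 19 of the 31. With range and 90th percentile both recomputed for all tested genes over fewer tumours, 14 of the 31 lay above that percentile without anti-CD4 4 and 13 did so among the PBS tumours alone. The edgeR biological coefficient of variation, the spread between tumours of a group beyond counting noise, had a median of 0.53 over the 31 genes and 0.15 over all tested genes. It was 1.23 for Lep and Cfd and 0.068 for Acaca.

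**Figure D1:**
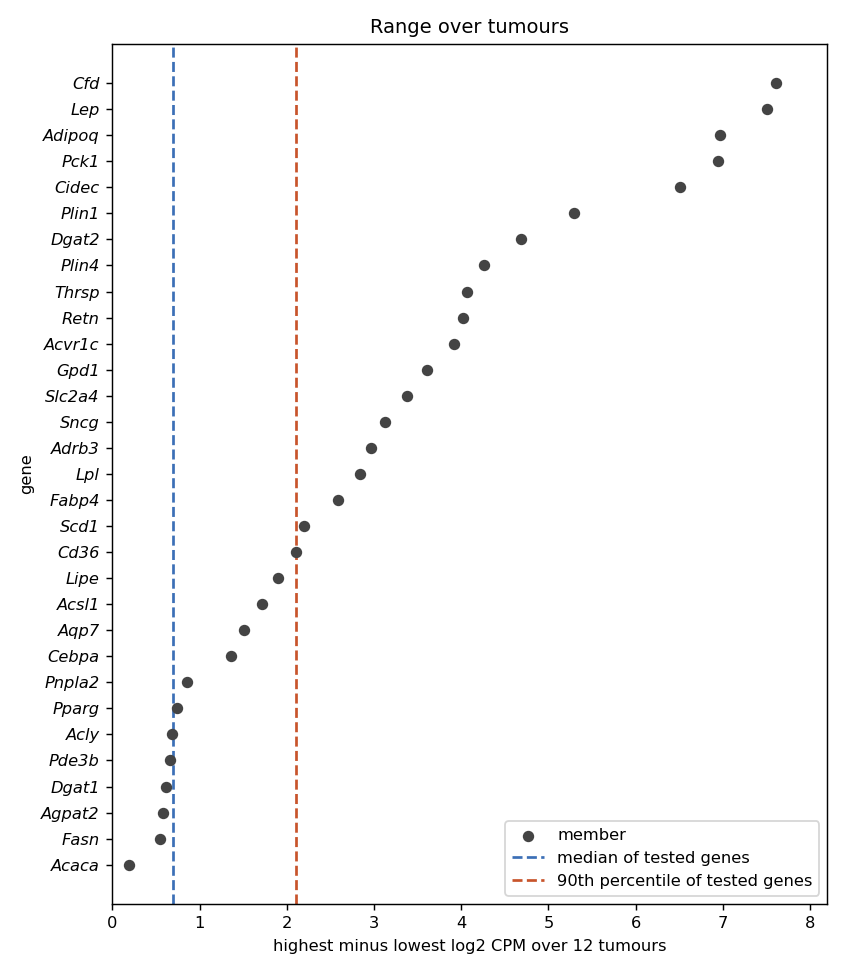
Range of log2 CPM (highest minus lowest of 12 tumours, x axis) for the 31 tested genes (y axis), with dashed lines at the median (0.69) and 90th percentile (2.10) of all 17940 tested genes. Cfd and Lep lie furthest right, and Acaca, at 0.19, lies left of the median line.

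Adipokines are the secreted hormones of fat. Adipoq, the adiponectin gene on chromosome 16 from 23146536 to 23158028, was at 6.26, 2.51, 3.54, 5.56, 13.7 and 4.30 CPM in PBS tumours 1 to 6. In anti-CD4 tumours 1 to 6 it was at 13.0, 0.315, 0.591, 29.5, 7.14 and 0.187 CPM. Anti-CD4 4 was thus the highest and anti-CD4 6 the lowest of all 12, 158-fold apart, while the PBS tumours spanned 5.45-fold. The values in anti-CD4 2, 3 and 6 rested on 13, 22 and 11 estimated counts. Lep, which encodes leptin, the satiety hormone, was at 2.004 to 6.10 CPM in PBS tumours. In anti-CD4 tumours 1 to 6 it was at 5.56, 0.024, 0.645, 13.2, 1.76 and 0.034 CPM, and the values of anti-CD4 2 and 6 rested on 1 and 2 counts. Cfd, the adipsin gene, a complement protease secreted by fat cells, was at 27.3, 18.9, 18.1, 14.1, 76.9 and 23.1 CPM in PBS tumours. It was at 44.9, 0.678, 2.37, 122, 28.4 and 0.578 CPM in anti-CD4 tumours. The lowest PBS tumour had 5.96 times the Cfd of the highest of anti-CD4 2, 3 and 6. Retn, the resistin gene, was again highest in anti-CD4 4, at 9.81 CPM, and lowest in anti-CD4 2, at 0.557 CPM, with PBS tumours at 1.69 to 5.55 CPM.

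**Figure D2:**
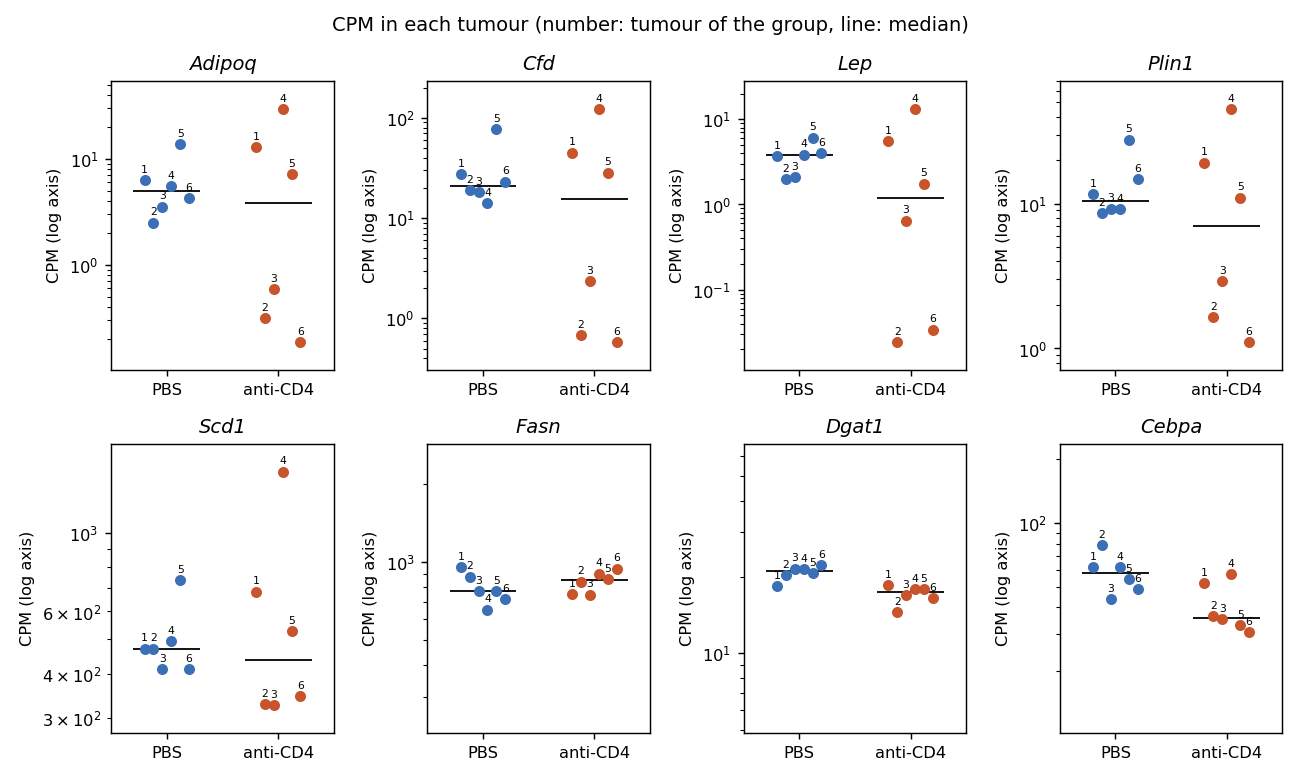
CPM on log axes in each of the 12 tumours for 8 genes, with PBS in blue, anti-CD4 in orange, the tumour number at each point and a line at the group median. Adipoq, Cfd, Lep and Plin1 spread widely among anti-CD4 tumours, with 2, 3 and 6 below every PBS tumour, whereas Fasn and Dgat1 stay within narrow bands.

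Genes of the droplet coat followed the same tumours. Plin1, the perilipin that guards the droplet of white adipocytes, was at 11.7, 8.61, 9.24, 9.22, 27.7 and 14.7 CPM in PBS tumours. It was at 19.2, 1.65, 2.90, 45.1, 11.03 and 1.10 CPM in anti-CD4 tumours. Again anti-CD4 2, 3 and 6 lay below every PBS tumour and anti-CD4 4 above. Cidec, which promotes fusion of droplets, ran from 4.01 to 20.1 CPM in PBS tumours and was at 15.3, 0.557, 0.323, 33.7, 8.60 and 0.340 CPM in anti-CD4 tumours. Plin4, another perilipin, ran from 29.3 to 103 CPM with PBS and from 7.43 to 143 CPM in anti-CD4 tumours. Plin4 shares 17 exon bases with Hdgfl2 on the opposite strand. Cidea had 10 estimated counts over all 12 tumours, 6 of them in anti-CD4 4, 2 in anti-CD4 5 and 1 each in anti-CD4 1 and PBS 1. A count of 0, as in the other 8 tumours, allows up to 3 counts, which is 0.051 to 0.094 CPM.

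Carriers and enzymes of uptake fell into 2 kinds. Fabp4, the fatty acid binding protein of adipocytes, lay at 12.9 to 28.9 CPM in PBS tumours and at 23.4, 8.45, 7.42, 44.9, 16.1 and 10.0 CPM in anti-CD4 tumours. Lpl, the lipase that frees fatty acids from lipoproteins, lay at 22.6 to 86.9 CPM with PBS and at 72.5, 29.0, 33.6, 162, 43.3 and 27.9 CPM in anti-CD4 tumours. So Lpl remained above 27 CPM in anti-CD4 2, 3 and 6, where Adipoq was under 0.6 CPM. Cd36, a fatty acid receptor, was at 22.9, 15.9, 20.7, 23.9, 33.9 and 23.2 CPM in PBS tumours and at 39.6, 29.8, 26.7, 68.5, 30.6 and 30.0 CPM in anti-CD4 tumours. All 6 anti-CD4 tumours were above 5 of the 6 PBS tumours, and PBS 5 lay among them. Aqp7, the glycerol channel of adipocytes, ran from 3.25 to 5.32 CPM with PBS and from 2.86 to 8.197 CPM in anti-CD4 tumours. Slc2a4, the insulin-responsive glucose transporter of fat and muscle, ran from 0.782 to 7.14 CPM with PBS and from 1.85 to 8.58 CPM in anti-CD4 tumours. It was among the 6 tested members whose log2 spread was wider in PBS than in anti-CD4 tumours.

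Transcription factors did not share the wide spread, apart from Thrsp, a lipogenic nuclear protein, at 0.611 to 1.92 CPM with PBS and 0.266 to 5.23 CPM in anti-CD4 tumours. Pparg, the lineage factor of adipocytes, was at 8.96, 10.7, 11.5, 11.6, 11.5 and 14.0 CPM in PBS tumours and at 9.68, 8.47, 9.01, 12.04, 8.52 and 8.36 CPM in anti-CD4 tumours. Its range over tumours, 0.74 on the log2 scale, was close to that of the median gene. Cebpa, which encodes C/EBPα and is also a factor of myeloid cells, was at 61.99, 78.9, 43.9, 62.1, 54.3 and 48.7 CPM in PBS tumours. It was at 52.0, 36.4, 35.4, 57.5, 32.9 and 30.7 CPM in anti-CD4 tumours, with anti-CD4 2, 3, 5 and 6 below every PBS tumour. The summed CPM of 12 macrophage markers was 1072 to 2178 in PBS and 1108 to 1354 in anti-CD4 tumours. Their median log2 fold change was -0.30, with 8 negative and 4 positive values. In edgeR 0 of the 12 passed, and 3 were lower and 0 higher at an unadjusted p under 0.05, beside 28% of all tested genes in either direction. DESeq2 called 2 lower and limma voom 0. The part of macrophages in the Cebpa values was not tested.

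Lipogenic enzymes included the steadiest genes. Acaca, acetyl-CoA carboxylase, the committed step of fatty acid synthesis, was at 228 to 252 CPM with PBS and 238 to 261 CPM in anti-CD4 tumours, and its range of 0.19 was narrower than that of nearly all tested genes (percentile 1.43). Fasn, fatty acid synthase, lay at 655 to 956 CPM with PBS and 749 to 942 CPM in anti-CD4 tumours. Acly, ATP citrate lyase, which makes cytosolic acetyl-CoA, lay at 173 to 269 CPM with PBS and 207 to 278 CPM in anti-CD4 tumours. These 3 genes were not highest in anti-CD4 4. Scd1, the desaturase that makes oleate, was at 471, 471, 411, 494, 736 and 413 CPM in PBS tumours and at 683, 328, 326, 1493, 527 and 346 CPM in anti-CD4 tumours. It followed the adipokine order at both ends, although the desaturase family shares sequence and the split of reads among its copies is uncertain. Acsl1, a fatty acyl-CoA synthetase, ran from 20.9 to 45.8 CPM with PBS and from 17.9 to 58.5 CPM in anti-CD4 tumours. Acsl1 shares 1039 exon bases with Gm45244 on the opposite strand, and no source used here gives the strand setting of the counting, so such shared counts are uncertain.

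The final steps of triglyceride synthesis use DGAT1 and DGAT2, unrelated enzymes for the same reaction, and their genes differed here. Dgat2 was at 8.27, 5.16, 5.43, 7.503, 16.8 and 7.01 CPM in PBS tumours and at 10.5, 1.40, 2.69, 37.3, 6.14 and 1.496 CPM in anti-CD4 tumours. Dgat1, on chromosome 15 from 76502015 to 76511953, was at 18.3, 20.3, 21.6, 21.5, 20.7 and 22.3 CPM in PBS tumours and at 18.6, 14.6, 16.9, 17.9, 18.0 and 16.5 CPM in anti-CD4 tumours. Dgat2 followed the adipokine order, and Dgat1 was lower in 5 of 6 anti-CD4 tumours than in any PBS tumour, with anti-CD4 1 just above PBS 1. Pck1, phosphoenolpyruvate carboxykinase, which supplies glycerol in fat, ran from 0.988 to 8.36 CPM with PBS and from 0.121 to 20.8 CPM in anti-CD4 tumours. Gpd1, glycerol-3-phosphate dehydrogenase, ran from 4.84 to 17.9 CPM with PBS and from 2.06 to 25.5 CPM in anti-CD4 tumours, and shares 384 exon bases with Gm16537 on the opposite strand. Agpat2, an acyltransferase of the same pathway, stayed at 14.0 to 20.9 CPM over all 12 tumours.

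Among lipolysis genes, Lipe, hormone-sensitive lipase, lay at 20.4 to 38.4 CPM with PBS and at 32.7, 13.6, 15.6, 50.6, 22.2 and 14.7 CPM in anti-CD4 tumours. Lipe shares 918 exon bases with 4732471J01Rik on the opposite strand. Pnpla2, the lipase of the first step of lipolysis, lay at 42.0 to 63.0 CPM with PBS and at 50.2 to 76.0 CPM in anti-CD4 tumours. Pde3b, the phosphodiesterase through which insulin restrains lipolysis, lay at 141 to 216 CPM with PBS and 146 to 224 CPM in anti-CD4 tumours. Adrb3, the β3-adrenergic receptor, lay at 1.34 to 2.63 CPM with PBS and at 2.05, 0.726, 0.968, 4.06, 0.743 and 0.476 CPM in anti-CD4 tumours. Adrb3 shares 839 exon bases with Gm45470 on the opposite strand. Acvr1c, the activin receptor ALK7, ran from 0.960 to 2.96 CPM with PBS and from 0.408 to 6.86 CPM in anti-CD4 tumours. Sncg, a synuclein of fat and sensory neurons, ran from 0.593 to 2.56 CPM with PBS and from 0.726 to 5.53 CPM in anti-CD4 tumours.

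The same tumours recurred at both ends across roles. Of the 31 tested genes, 24 were highest in anti-CD4 4, a tumour in which 10.6% of all tested genes were highest. Anti-CD4 4 and PBS 5 were the highest pair for 19 of the 31, a pattern of 2.17% of all tested genes. Anti-CD4 2, 3 and 6 were the lowest trio for 16 of the 31, a pattern of 1.88% of all tested genes. The log2 spread was wider in anti-CD4 than in PBS tumours for 25 of the 31 genes and for 41.9% of all tested genes. For Adipoq the SD of log2 CPM was 0.83 in PBS and 2.96 in anti-CD4 tumours, and for Lep 0.60 and 3.10. These tumours were singled out after their values were seen, so the counts are descriptions.

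**Figure D3:**
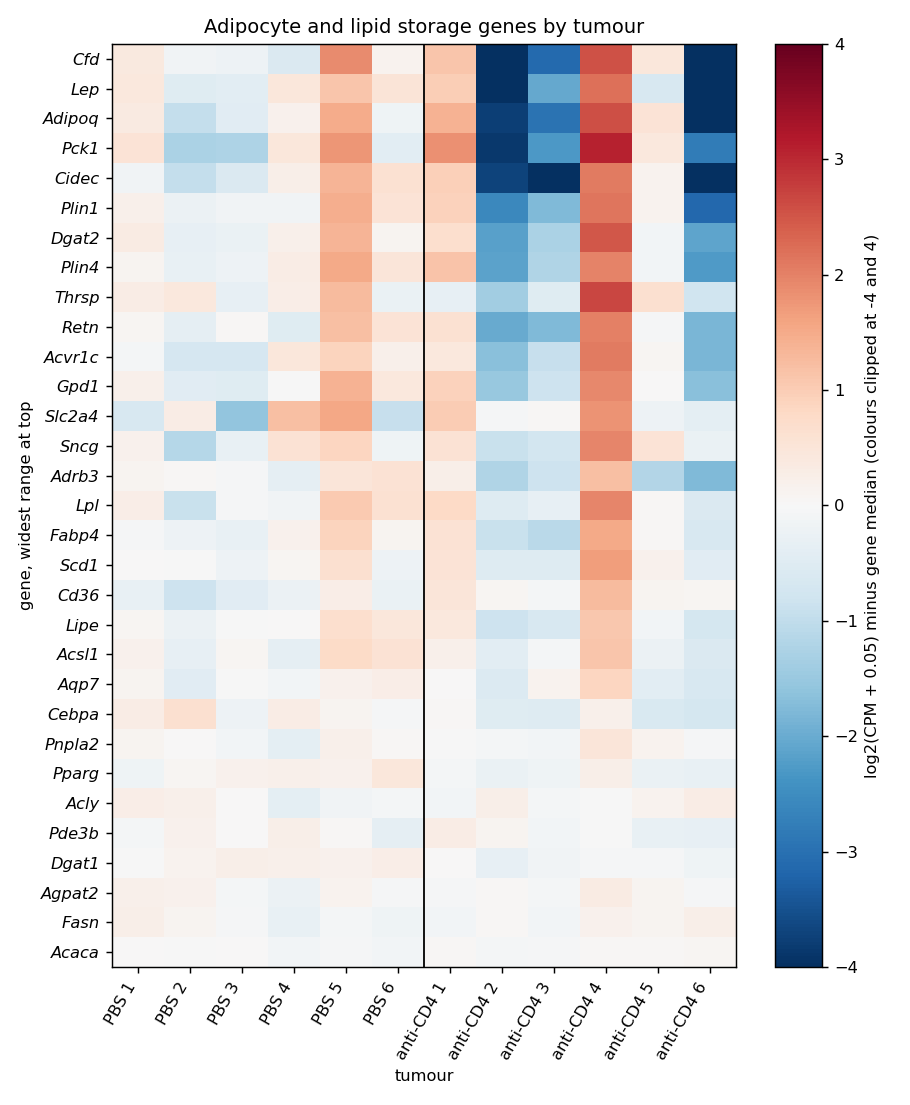
Heatmap of 31 genes (rows, widest range at the top) in 12 tumours (columns), coloured by log2(CPM + 0.05) minus the gene's median, red above and blue below, clipped at 4 either side of 0. The upper rows are red in anti-CD4 4 and PBS 5 and blue in anti-CD4 2, 3 and 6, and the lowest rows, such as Fasn and Acaca, are nearly white.

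Ratios to Adipoq differed between genes and tumours. The ratio of Cidec to Adipoq estimated counts was 1.18, 1.14 and 1.21 in anti-CD4 1, 4 and 5. It was 1.77, 0.5455 and 1.82 in anti-CD4 2, 3 and 6 and 1.15 to 2.82 in PBS tumours. The ratio of Pck1 to Adipoq was 0.666, 0.705 and 0.458 in anti-CD4 1, 4 and 5. It was 0.388, 0.787 and 1.64 in anti-CD4 2, 3 and 6 and 0.285 to 0.611 in PBS tumours. The ratio of Cfd to Adipoq was 2.53 to 7.51 in PBS tumours and 2.15 to 4.15 in anti-CD4 tumours. The ratio of Lep to Adipoq was 0.446 to 0.929 in PBS tumours and 0.0769 to 1.09 in anti-CD4 tumours. Ratios of Plin1, Plin4 and Retn were higher in anti-CD4 2, 3 and 6 than in the other 9 tumours. For Plin4 they were 25.6, 26.5 and 39.7 there, 4.67 to 6.15 in anti-CD4 1, 4 and 5, and 6.17 to 11.8 in PBS tumours. For Plin1 they were 5.22, 4.90 and 5.95 there, 1.48 to 1.55 in anti-CD4 1, 4 and 5, and 1.66 to 3.42 in PBS tumours. For Retn they were 1.73, 1.15 and 3.48 there, 0.286 to 0.333 in anti-CD4 1, 4 and 5, and 0.301 to 0.824 in PBS tumours. The Adipoq counts of 13, 22 and 11 limit the precision of the ratios in anti-CD4 2, 3 and 6.

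Per kilobase of exon, the order of levels in PBS tumours was led by Scd1 at 102 ± 24.6 and Fasn at 72.3 ± 10.0 CPM per kilobase (SD, n = 6). Acly followed at 42.5 ± 6.86 and Cfd at 32.3 ± 25.5 CPM per kilobase, neighbours whose spreads overlap. Cebpa, Pde3b and Pnpla2, at 22.1 ± 4.70, 20.3 ± 2.89 and 18.0 ± 2.42, also overlapped. Adipoq, at 4.33 ± 2.90 CPM per kilobase, ranked 16 of 32, and Adrb3, Thrsp, Acvr1c and Cidea ranked 29 to 32.

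Few of the genes passed the test between treatment groups. Of the 31 tested genes, 0 rose and 1, Dgat1, fell in the edgeR fit, beside 5.28% of all tested genes called in either direction, 2.95% higher and 2.33% lower. At an unadjusted p under 0.05 there were 1 higher (Cd36) and 3 lower (Cebpa, Pparg and Dgat1), beside 28% of all tested genes. DESeq2 called Cd36 higher and Cebpa and Dgat1 lower, and limma voom called Adrb3, Cebpa, Dgat1 and Pparg lower. In none of the 31 did the groups separate completely, which they did for 3.12% of all tested genes. The median log2 fold change was 0.064, with 21 positive and 10 negative values, and 0.00 over all tested genes. It was -0.42 without anti-CD4 4, 0.28 without PBS 5 and -0.37 with limma voom.

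Dgat1 averaged 20.8 ± 1.39 CPM with PBS and 17.1 ± 1.45 CPM with anti-CD4 (SD over 6 tumours), a fall with log2 fold change -0.28, SE 0.07 and adjusted p = 0.0377 by edgeR. The call was lost in 9 of the 12 fits that each leave out a tumour (adjusted p from 0.0153 to 0.0975), namely all but those without PBS 1, anti-CD4 1 or anti-CD4 4. It was also lost with the library total as a covariate (-0.24, adjusted p = 0.315) and without a filter on low counts (-0.27, adjusted p = 0.0639). By edgeR, Cebpa stood at -0.52 on the log2 scale (SE 0.18, adjusted p = 0.0983), Pparg one of -0.28 (SE 0.12, adjusted p = 0.134) and Cd36 one of 0.68 (SE 0.25, adjusted p = 0.106), so none of these passed. Cd36 was at 0.42 without anti-CD4 4.

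For Adipoq, Lep, Cfd and Plin1, the intervals were too wide to show or exclude a sizeable difference. Other adipocyte genes had narrower intervals, such as Lipe (-0.80 to 0.49) and Aqp7 (-0.46 to 0.47). Adipoq averaged 5.98 ± 4.01 CPM with PBS and 8.45 ± 11.5 CPM with anti-CD4 (SD over 6 tumours), with a log2 fold change of 0.50 (95% interval -1.53 to 2.54, edgeR adjusted p = 0.776). For Adipoq it was -0.50 without anti-CD4 4, 0.91 without PBS 5 and -1.57 with limma voom, which weights the tumours (adjusted p = 0.279). Lep was at -0.03 (interval -2.02 to 1.95), at -1.21 without anti-CD4 4, at 0.16 without PBS 5 and at -2.74 with voom (adjusted p = 0.0822). Cfd was at 0.16 (interval -1.98 to 2.31), at -0.96 without anti-CD4 4, at 0.69 without PBS 5 and at -2.18 with voom (adjusted p = 0.167). Plin1 was at -0.00 (interval -1.61 to 1.61), at -0.92 without anti-CD4 4, at 0.32 without PBS 5 and at -1.36 with voom (adjusted p = 0.184). The sign of these 4 genes thus depended on the tumours and the tool used. The group medians lay lower in anti-CD4 than in PBS tumours for all 4 genes. They were at 3.86 against 4.93 CPM for Adipoq and 1.20 against 3.79 CPM for Lep. For Cfd they were at 15.4 against 21 CPM, and for Plin1 at 6.96 against 10.45 CPM. Narrow intervals included those of steady enzymes, at -0.09 to 0.26 for Fasn, -0.03 to 0.14 for Acaca and -0.16 to 0.21 for Agpat2. That of Pparg was also narrow, at -0.51 to -0.05, with an edgeR adjusted p of 0.134.

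**Figure D4:**
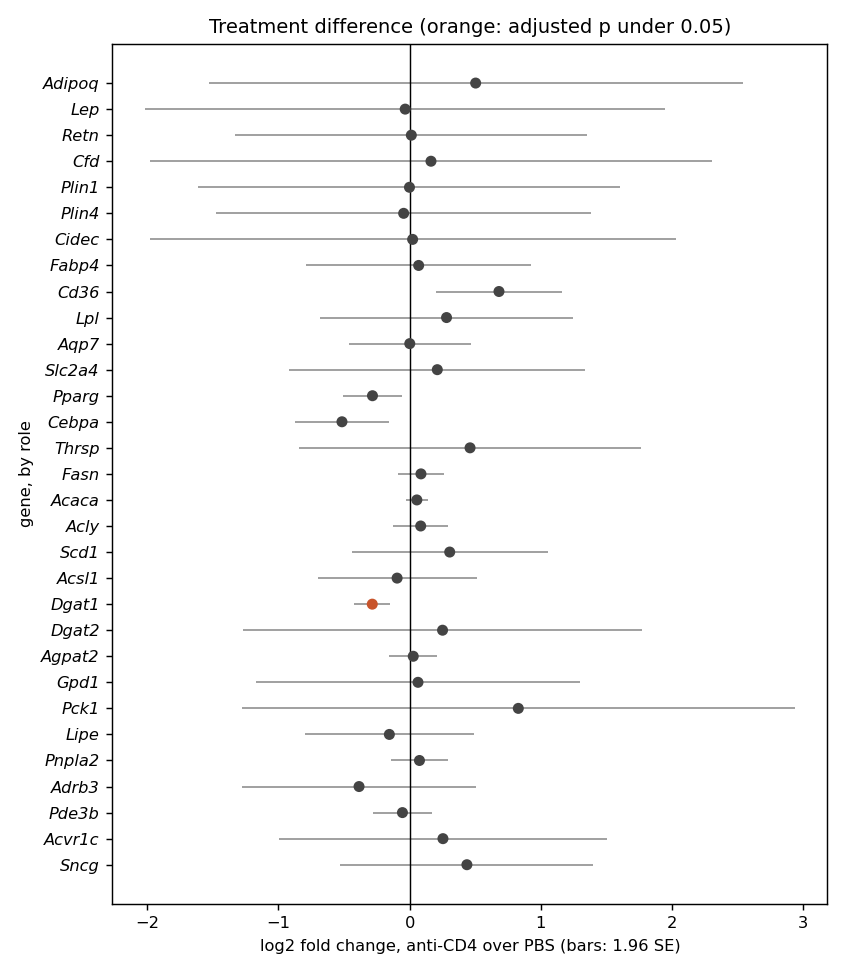
Log2 fold change of anti-CD4 over PBS (x axis; bars are 95% intervals) for the 31 tested genes grouped by role (y axis), with genes under an adjusted p of 0.05 in orange. Dgat1 at -0.28 is the orange point, and the bars of Adipoq, Lep, Cfd, Cidec and Pck1 are the widest.

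Of the related genes outside the 32, 8 rose and 0 fell over 4 lists. Of 22 tested genes of triglyceride synthesis and droplets, 4 rose and 0 fell in edgeR, beside 2.95% of all tested genes that rose. They were Abhd5, the co-activator of the lipase PNPLA2 (log2 fold change 0.24, SE 0.05), Lipa, the lysosomal acid lipase (0.26, SE 0.06), Plin3, a widely expressed perilipin (0.26, SE 0.06), and Rab18, a droplet GTPase (0.23, SE 0.06). The list median was 0.14, against 0.00 over all tested genes. In edgeR, 8 genes of this list were higher and 0 lower at an unadjusted p under 0.05, DESeq2 called 6 higher and 0 lower, and limma voom called 6 higher and 2 lower. Of 27 other adipocyte genes, 3 rose, namely Cav1, the caveolin, which is abundant in fat, endothelium and fibroblasts (0.59, SE 0.12), Angptl4, an inhibitor of lipoprotein lipase (0.50, SE 0.11), and Irs1, an insulin receptor substrate (0.18, SE 0.05). DESeq2 called 3 higher and 0 lower in that list, and voom 5 higher and 3 lower. The summed CPM of 12 fibroblast and preadipocyte markers, 1384 to 1833 with PBS and 1929 to 2186 with anti-CD4, moved with these called genes, and its part in their rise was not tested. Of 15 genes of fatty acid oxidation, 1 rose, Cpt1a, the carnitine palmitoyltransferase of liver type (0.35, SE 0.07), and voom called 5 higher and 1 lower there. Of 17 other lipogenesis genes 0 passed in edgeR, with 2 at an unadjusted p under 0.05 and 1 called by DESeq2, and the smallest p values were those of Me1, malic enzyme (0.29, SE 0.09, adjusted p = 0.0588), and Scap, the SREBP chaperone (0.12, SE 0.05, adjusted p = 0.125). Each of these 8 called genes lost its call in 5 to 9 of the 12 fits that leave out a tumour. With the library total as a covariate 0 genes of the whole table were higher, and totals averaged 36.1 M with PBS and 46.4 M with anti-CD4.

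Of the 27 tested genes on the list of other adipocyte genes, 15 were highest in anti-CD4 4, beside 10.6% of all tested genes. Trarg1, a partner of the glucose transporter of fat and muscle, ran from 4.15 to 12.02 CPM in PBS tumours and was at 10.7, 2.25, 2.63, 20.3, 7.80 and 2.36 CPM in anti-CD4 tumours. Mrap, an accessory protein of the ACTH receptor made by fat and adrenal cells, ran from 0.415 to 1.19 CPM with PBS and was at 2.07 CPM in anti-CD4 4 and 0.024 CPM in anti-CD4 2. Ucp1, the uncoupling protein of brown fat, is on the list but had too few counts to be tested. It was at 0 to 0.074 CPM with PBS and 0 to 0.239 CPM in anti-CD4 tumours. Outside anti-CD4 4 its values were at or below the level of 3 counts, too few to read an order of tumours. These 3 genes were chosen for mention after their values were seen.

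Markers of other cells were summed per tumour. The 12 defining adipocyte genes, drawn from the 32 and all above 0 in every tumour, summed to 94.6 to 304 CPM in PBS tumours and to 224, 29.9, 46.0, 471, 122 and 29.2 CPM in anti-CD4 tumours. The 20 skeletal muscle markers, all above 0 in every tumour, summed to 1209, 2970, 1075, 4343, 7009 and 1246 CPM in PBS tumours and to 5278, 1289, 3130, 5970, 1320 and 1747 CPM in anti-CD4 tumours. The 3 tumours highest in muscle markers (PBS 5, anti-CD4 4 and anti-CD4 1) were also the 3 highest in adipocyte genes, while PBS 4 and anti-CD4 3 were high in muscle markers without being high in Adipoq. None of the 20 passed in edgeR, with 0 at an unadjusted p under 0.05 and 0 called by DESeq2. With the muscle sum as a covariate the median log2 fold change of the 31 genes was -0.14, and Cebpa was called lower (-0.58, adjusted p = 0.0314) as well as Dgat1. Beyond that covariate fit, the part of muscle in the adipocyte values was not tested.

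The 12 skin epithelium markers summed to 3.66 to 4.72 CPM with PBS and 3.51 to 5.77 CPM in anti-CD4 tumours, and 2 of them were at 0 in every tumour. The 12 endothelial markers summed to 218 to 276 and 191 to 291 CPM, and the 9 sebocyte markers to 163 to 196 and 168 to 206 CPM, most of it Soat1. The 10 brown adipocyte markers summed to 14.0 to 27.8 and 19.1 to 28.8 CPM, with Ppargc1a, also a gene of muscle, the largest. The 10 nerve and Schwann cell markers summed to 39.4 to 133 and 31.5 to 157 CPM and were highest in anti-CD4 4. The 12 fibroblast and preadipocyte markers did not overlap between groups in their sum, most of it Cd34, Pdgfra and Pdgfrb. In edgeR 2 of the 12 rose, Pdgfra (0.28, SE 0.07) and Cd34 (0.28, SE 0.08), beside 2.95% of all tested genes that rose. Log2 fold changes were positive for 10 of the 12 and negative for 2. At an unadjusted p under 0.05 in edgeR, 4 were higher and 1 lower. DESeq2 called 4 higher and 0 lower, and limma voom 4 higher and 1 lower. Pdgfra lost its call in 9 and Cd34 in 10 of the 12 fits that leave out a tumour, and both lost it when library totals entered the fit. The parts of these cells in the values above were not tested.

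**Figure D5:**
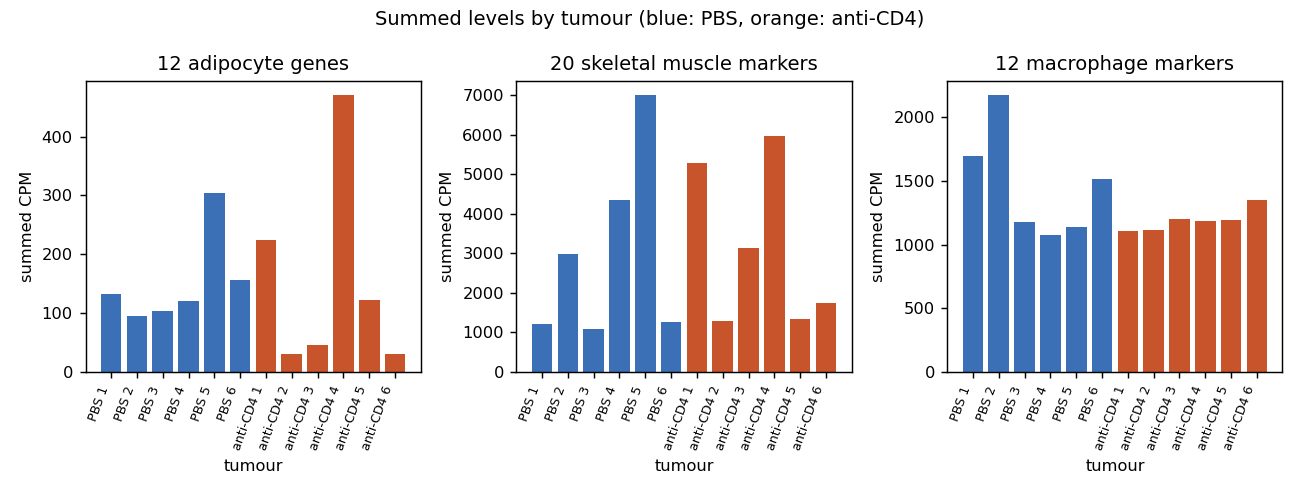
Summed CPM (y axes from 0) of 12 adipocyte genes, 20 skeletal muscle markers and 12 macrophage markers in each tumour (x axes), with PBS in blue and anti-CD4 in orange. Anti-CD4 4, PBS 5 and anti-CD4 1 are highest in the first 2 panels, and PBS 2 is highest in the third.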

How the data were processed

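Ribosomal and globin transcripts were removed from tumour RNA before sequencing of 100-base pairs, per the labels. Software named by the submitters' processing notes is kallisto and bcl2fastq 2.20.0.422, with GRCm38.p6 as build. A table of estimated counts for each gene name was deposited. The annotation, gene summing, strand setting and filters behind it are not given in sources used here.

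Counts were rounded, filtered (filterByExpr), scaled by TMM and tested with the quasi-likelihood F test of edgeR 4.0.16 (R 4.3.3, no covariate). P-values were Benjamini-Hochberg adjusted over all tested genes and called under 0.05. The SE is the log2 fold change over the square root of F, and 95% intervals rest on that SE. CPM uses TMM-scaled totals, and log2 CPM a prior count of 2. Exon lengths and loci come from GENCODE M21 (GRCm38). The script was tested on simulated data. Chi-square per degree of freedom between tumours of a group was 8.01 to 61.1, far above sampling noise. The spread in depth means the lowest counts limit the rarest genes, and floors cover counting error only.

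The 32 genes and all lists were chosen with earlier results of these data known. The naming rule took all 32 genes, up to 8 called genes of each pathway list (the 2 with the smallest p where none was called) and up to 3 of the most abundant markers per cell type. DESeq2 1.42.0 and limma 3.58.1 voom were alternatives. For the count of widely varying genes, leaving out anti-CD4 4 and using PBS tumours alone were chosen after seeing the data, as was the muscle covariate. Leaving out each tumour from the treatment fits was planned.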

Additional observations from a re-analysis of the deposited data

Results flagged for a closer look

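Within each group of 6 tumours, the highest or lowest tumour was compared with the rest by Dixon's gap test at the 95% level. Of 64 such groups, 23 had a tumour set apart, 12 of them anti-CD4 4. A rate of about 1 group in 20 by chance holds only for values with a normal spread. The test was run on CPM without logs, where high values are stretched, so that rate is no yardstick for the 23 groups. Genes that vary together do not count as separate cases.

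Anti-CD4 4 lay above the other anti-CD4 tumours in Retn (9.81 CPM), Cfd (122 CPM), Cidea (0.119 CPM, from 6 counts), Cd36 (68.5 CPM), Lpl (162 CPM) and Pparg (12.04 CPM). It did so as well in Thrsp (5.23 CPM), Scd1 (1493 CPM), Acsl1 (58.5 CPM), Dgat2 (37.3 CPM), Acvr1c (6.86 CPM) and Sncg (5.53 CPM).

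PBS 5 lay above the other PBS tumours in Adipoq (13.7 CPM), Cfd (76.9 CPM), Plin1 (27.7 CPM), Plin4 (103 CPM) and Fabp4 (28.9 CPM). The same held for Thrsp (1.92 CPM), Scd1 (736 CPM), Dgat2 (16.8 CPM), Gpd1 (17.9 CPM) and Pck1 (8.36 CPM). PBS 1 stood apart in Cidea, with 0.025 CPM from 1 count.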

How the results depend on the processing

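Calls over all genes numbered 529 higher and 418 lower. Higher and lower calls were 179 and 325 with upper quartile scaling (35.5% higher against 55.9%), 1337 and 1157 with DESeq2, 2809 and 3169 with limma voom, 272 and 251 without a filter, and 1132 and 987 with the muscle covariate. They were 0 and 5 with the library total as a covariate (2193 genes at an unadjusted p under 0.05 in edgeR), and 29 to 1160 and 31 to 1480 when leaving out each tumour. Of the 31 tested genes, 1 was called, against 3 with DESeq2, 4 with voom, 2 with the muscle covariate, 0 without a filter, 0 with the library total, and 0 to 2 when leaving out each tumour. With the replicate number as a block, 19 genes were higher, 14 lower and 0 of the 31 called (Dgat1 -0.29, adjusted p = 0.110; Adipoq -1.02; Lep -1.54). The numbers do not pair the tumours: same-numbered deviations correlated at -0.409 to 0.229, and 0 of 6 correlated best with their own number. Of 650 pairs of gene and alternative, 0 reversed a called value, 12 lost a call (all Dgat1), 7 gained one, and 105 changed sign without a call in either fit. The median level per length was 3.89 CPM per kilobase and 5.61 with the longest transcript in place of the union of exons. The causes of these changes were not tested otherwise. Genes under about 1 CPM rest on few counts.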
